A study of Mus musculus with 10 samples.

Results

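Chromatin accessibility was examined around 9 genes of metabolism and transport that the study captured as activated by the erythroid transcription factor GATA1, namely Pcx, Dhrs11, Tst, Lpin2, Hebp1, Slc38a5, Spns2, Atp1b2 and Plekho2. These are 9 of the 21853 protein-coding genes of the GENCODE M21 annotation that have a protein-coding transcript, and they stand beside 13 other genes captured in the same activated class. For each gene, the summits of the ATAC-seq peak lists were read from 100 kb upstream to 100 kb downstream of the gene span. The measurements came from G1E-ER4 cells, a clonal mouse erythroid line derived from Gata1-null G1E cells that carries GATA1 fused to the ligand-binding domain of the estrogen receptor, so that β-estradiol turns GATA1 activity on. All cells, untreated ones included, share the Gata1-null background and the fusion protein and were grown with SCF and EPO, so no wild-type Gata1 is present. The groups were untreated cells (0 h) and cells treated with 1e-07 M β-estradiol for 2, 6, 12 and 24 h, with 2 libraries at each time point and about 50000 cells tagmented per library. The replicates are described as independent experiments, and the labels do not say what was separate between them. In bulk cells, a larger share of cells with an open site and a wider opening per cell cannot be told apart.

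Open DNA at a promoter or enhancer is cut by the Tn5 transposase, and a peak marks where cuts pile up. GATA1 binds short GATA motifs, often in enhancers far from the gene and together with TAL1, and activates heme, globin and membrane genes as erythroid cells mature. Maturing red cells also rebuild their metabolism and their membrane. Pyruvate carboxylase (Pcx) turns pyruvate into oxaloacetate, Dhrs11 is a short-chain dehydrogenase, Tst is the mitochondrial sulfurtransferase rhodanese, Lpin2 is a phosphatidate phosphatase of the lipin family and Hebp1 binds heme. Slc38a5 carries neutral amino acids such as glutamine, Spns2 exports sphingosine-1-phosphate, Atp1b2 encodes a β subunit of the Na,K-ATPase and Plekho2 encodes a protein with a pleckstrin homology domain.

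The 10 lists held between 10698 and 19859 summits, the shortest from 24 h replicate 2 and the longest from 6 h replicate 2, and the read depth behind them is unknown. Each summit has a score, -log10 of the q-value in its own library, and because scores are not scaled between libraries each one is given here as its percentile among all scores of its list (100 being the strongest). Summits lying within 500 bp of each other were joined into 28981 regions, of which 6234 were in all 10 libraries. Among erythroid marker genes, Epor and Nfe2 had a promoter summit in all 10 libraries, Klf1 and Gfi1b in 4 and Tal1 in 2, whereas Alas2 and Slc4a1 had one in 0. All 4 lymphoid and 3 hepatocyte markers had one in 0 libraries.

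The study directed dCas9 to these promoters with 27 guides, and all 27 matched the GRCm38.p6 (mm10) assembly exactly at their listed positions. The first listed guide of each gene is shown because it marks the promoter that was captured, with the PAM in capitals.
Pcx guide, chr19:4510179-4510198, plus strand: cggaccacttccgcctattgCGG
Dhrs11 guide, chr11:84829257-84829276, minus strand: atggaggctctccaccgcaaAGG
Tst guide, chr15:78406110-78406129, plus strand: tactatagcagcaaattggtGGG
Lpin2 guide, chr17:71183730-71183749, minus strand: cttacctgcggcaccgcgcgCGG
Hebp1 guide, chr6:135168440-135168459, minus strand: gctgaagcggagggatcctcAGG
Slc38a5 guide, chrX:8271161-8271180, minus strand: ggtatgcgaatgtaactagtTGG
Spns2 guide, chr11:72490127-72490146, minus strand: gcgtgacttgcgcccccgtcAGG
Atp1b2 guide, chr11:69606182-69606201, minus strand: tcttgtttcagtactgtaccTGG
Plekho2 guide, chr9:65580311-65580330, plus strand: gaggtttcccggaccaaagcAGG

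Promoter accessibility differed widely among the 9 genes. A promoter summit, meaning one within 1 kb of a protein-coding start of the gene, was found in all 10 libraries for Pcx, Atp1b2, Lpin2 and Tst, in 9 for Plekho2 and Dhrs11, in 7 for Spns2, in 5 for Hebp1 and in 1 for Slc38a5. These 4 of 9 genes in all libraries compare with 26.4% of all protein-coding genes. Before treatment, 8 of the 9 genes had a promoter summit in both 0 h libraries. Per library (replicate 1 first) the number was 8 and 8 before treatment and 7 and 7 after 2 h. It was 7 and 8 after 6 h, 5 and 7 after 12 h and 8 and 6 after 24 h. The shares of all genes in single libraries or time points are not given, so these counts cannot be read against the genome. The counts at 24 h did not lie above those at 0 h. Among the 13 other captured activated genes, 5 had a promoter summit in all libraries, 6 in some and 2 (Alas2, the erythroid enzyme of heme synthesis, and Cldn13) in 0.

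**Figure D1:**
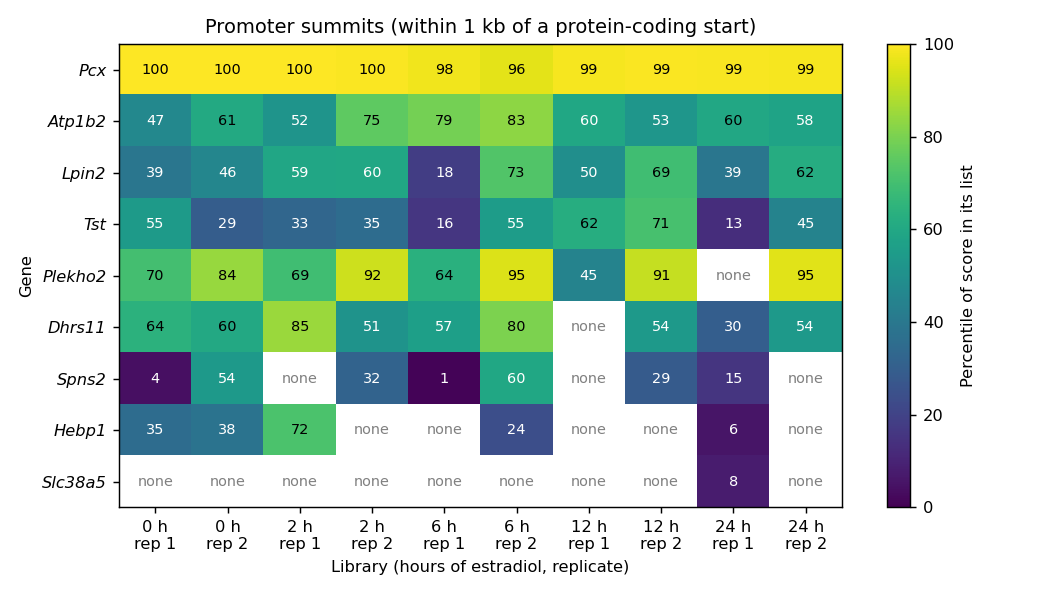
Percentile of the strongest promoter summit of each gene (rows) in each of the 10 libraries (columns, hours of β-estradiol and replicate), on a scale from 0 to 100, with "none" where no summit lay within 1 kb of a protein-coding start. Pcx lay between 96.1 and 99.8, near the upper limit of the scale, while Hebp1 had a summit in 5 libraries and Slc38a5 in 1.

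Pcx had by far the strongest promoter of the group, at percentiles of 99.8 and 99.7 before treatment, 99.8 and 99.6 after 2 h, 97.8 and 96.1 after 6 h, 98.6 and 99.4 after 12 h, and 99.005 and 98.8 after 24 h (replicate 1 first). Its 10 values did not overlap those of any other of the 9 genes. So close to 100 the percentile hides differences in score, which ran from 18.8 to 41.5. The summit lay at -88 to -219 bp from the captured start, in the region chr19:4510003-4510634. A second region at an internal Pcx start (+48.3 kb, with plus meaning downstream of the captured start in the direction of transcription) was in all 5 libraries with replicate number 1, at percentiles of 13.7, 59.4, 28.7, 52.8 and 95.0 from 0 to 24 h. Among the replicate 2 libraries it was in that of 6 h alone, at 27.9.

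Tst, the rhodanese gene, shares its promoter region (chr15:78405735-78407118) with Mpst, a second sulfurtransferase that starts on the opposite strand. Its promoter percentiles were 54.6 and 29.4 before treatment, 32.9 and 35.4 after 2 h, 15.8 and 55.4 after 6 h, 62.2 and 70.7 after 12 h, and 13.2 and 44.8 after 24 h. The summits lay at -316 to -961 bp from the Tst start, so its presence in all 10 libraries rests on the limit of 1 kb. The median summit of the region was nearer to the Mpst start, at -112 bp. The 0 h and 24 h values overlapped, and the pair at 12 h was the highest.

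Dhrs11 had a promoter summit (chr11:84828676-84829434) in every library except 12 h replicate 1. Its percentiles were 64.1 and 60.3 before treatment, 84.9 and 51.5 after 2 h, 56.6 and 80.1 after 6 h, 53.7 in the remaining 12 h library, and 29.9 and 53.7 after 24 h. Both 24 h values lay below both 0 h values. With 2 libraries against 2, an exact permutation test cannot give a p below 0.333, so no such order was tested alone.

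Lpin2 has several annotated starts, and the one that the guides target was not the one with a summit listed in all 10 libraries. The region at the captured start (chr17:71183024-71183742) was in 6 libraries, which were all 5 with replicate number 2 and 0 h replicate 1. Its percentiles were 39.4 and 11.3 at 0 h, then 47.1, 55.6, 69.3 and 62.0 in the replicate 2 libraries of 2, 6, 12 and 24 h. The region at an internal start (+20.9 kb, chr17:71204162-71204846) was in all 10 libraries. There the percentiles were 24.9 and 45.9 before treatment, 59.0 and 59.6 after 2 h, 17.98 and 72.8 after 6 h, 49.5 and 52.8 after 12 h, and 39.2 and 46.0 after 24 h.

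The Hebp1 promoter (chr6:135167812-135168417) was listed in both libraries before treatment and in 3 of the 8 treated ones. Its percentiles were 35.4 and 38.2 at 0 h, 71.5 at 2 h in replicate 1, 24.0 at 6 h in replicate 2 and 5.62 at 24 h in replicate 1, and no summit was listed in the other 5 treated libraries. Both 12 h lists lacked it.

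Slc38a5, the amino acid transporter gene on the X chromosome, had 1 promoter summit in the whole time course, at a percentile of 7.63 in 24 h replicate 1. That summit lay 484 bp downstream of the nearest Slc38a5 start and 0.975 kb downstream of the captured one (chrX:8271876-8272376). In the other 9 lists no summit was called there, which does not show that the DNA was closed, since a list holds only peaks past its caller's threshold.

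Spns2, the sphingosine-1-phosphate exporter gene, had a weak and variable promoter summit (chr11:72489668-72490410). Its percentiles were 4.02 and 53.6 before treatment, 31.7 in replicate 2 of 2 h, 1.07 and 59.6 in both replicates of 6 h, 28.5 in replicate 2 of 12 h and 15.4 in replicate 1 of 24 h. The 2 libraries of 6 h alone held both the lowest and the highest value of the series.

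Atp1b2, the Na,K-ATPase β subunit gene, gave 46.9 and 60.8 before treatment, 51.8 and 75.3 after 2 h, 79.2 and 83.2 after 6 h, 59.7 and 52.7 after 12 h, and 60.1 and 57.9 after 24 h (chr11:69605628-69606238). Both 6 h values were above those of all other libraries. At 6 h the percentile was 27.3 ± 9.16 (SE) higher than at 0 h, which did not pass after Benjamini-Hochberg adjustment over 6234 regions (limma, adjusted p = 0.901).

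Plekho2 had the second strongest promoter (chr9:65579923-65580566) by median, 84.4 over 9 libraries. Its percentiles in replicates 1 and 2 were 70.3 and 84.4 before treatment, 69.4 and 92.4 after 2 h, 63.5 and 94.5 after 6 h and 44.8 and 91.0 after 12 h, while at 24 h replicate 1 had no summit and replicate 2 had 95.5. The replicate 2 library was the higher one at every time point, and the values of the 2 replicate numbers did not overlap. At Plekho2, at the Lpin2 captured start and at the internal Pcx start, the level or the presence of a summit thus went with the replicate number, and the part of list length, depth or preparation in this was not tested. These places were named after their values were seen. Of the 97 regions in the 9 windows, 2 were in all replicate 1 libraries and at most 1 replicate 2 library. The reverse held for 1 region. The shares over all regions are not given, so these counts do not show whether the pattern was unusual.

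The base composition of the promoters is shown for Pcx and Hebp1, since one was near the top of every list and the other was in 5 of 10. Sequences are the 250 bases before the RefSeq start on GRCm38.p6, with matches to the KLF motif CCACNCCC on either strand in capitals. RefSeq promoters within 250 bp of the captured start were matched for 6 of the 9 genes, and Spns2, Tst and Atp1b2 are only named.
Pcx promoter, chr19:4510222-4510471, plus strand: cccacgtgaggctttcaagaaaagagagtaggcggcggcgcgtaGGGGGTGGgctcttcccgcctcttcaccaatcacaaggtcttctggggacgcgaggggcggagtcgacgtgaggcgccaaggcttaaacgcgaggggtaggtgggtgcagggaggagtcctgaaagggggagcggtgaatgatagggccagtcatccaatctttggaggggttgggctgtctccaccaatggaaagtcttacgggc
Hebp1 promoter, chr6:135168216-135168465, minus strand: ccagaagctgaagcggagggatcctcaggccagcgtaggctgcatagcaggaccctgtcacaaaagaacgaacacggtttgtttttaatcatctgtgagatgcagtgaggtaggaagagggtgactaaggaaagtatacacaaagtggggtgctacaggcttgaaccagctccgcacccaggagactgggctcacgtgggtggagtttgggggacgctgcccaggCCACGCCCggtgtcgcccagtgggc
The Pcx window holds 16 CpG and 60.8% G and C, and the Hebp1 window 10 CpG and 57.6%. Over 32851 RefSeq promoters the medians were 6 CpG and 52.4%. Slc38a5, at 8 CpG and 55.2%, was the lowest of the 6 matched genes on both, and Plekho2 had the highest content of G and C at 72.4%. None of the 6 windows holds the GATA motif AGATAA or TGATAA, which 16.6% of all promoters do, and 3 of the 6 hold the KLF motif, which 15.9% do.

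Relatives of the 9 genes were read in the same way. All 5 biotin carboxylases, Pcx with Acaca and Acacb of fatty acid synthesis, Pcca and Mccc1, had a promoter summit in all 10 libraries. Both sulfurtransferases did too, through their shared region. Of the 11 Slc38 transporters, Slc38a6, Slc38a9 and Slc38a10 had one in all 10, Slc38a2 in 9, Slc38a7 in 8 and Slc38a5 in 1, and 5 others in 0. Among the β subunits of the Na,K-ATPase, Atp1b2 and Atp1b3 had one in all 10 libraries and Atp1b1 in 0. Lpin1 was listed in 4 libraries and Lpin3 in 7, Spns1 in 10 and Spns3 in 0, and Hebp2 and Plekho1 in 0. Over the 35 relatives other than the 9 genes themselves, 15 had a promoter summit in all libraries, 5 in some and 15 in 0.

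The 9 windows held 97 regions, of which 11 lay at promoters of the 9 genes, 25 at promoters of neighbours and 61 were distal, more than 1 kb from any protein-coding start. Of the distal regions 30 were intronic, 27 intergenic and 4 exonic. Among the 97, 23 were in all 10 libraries and 25 in 1 library only. The number per window ran from 6 for Hebp1 and 7 for Slc38a5 to 16 for Plekho2 and 18 for Atp1b2, whose window has 15 other genes.

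**Figure D2:**
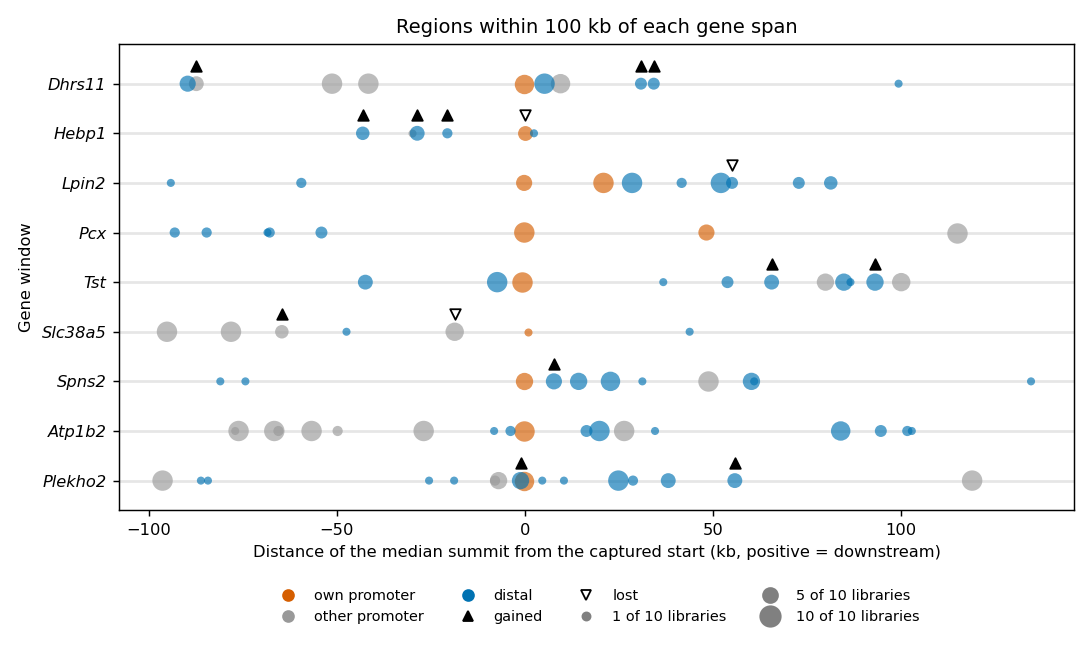
Position of the 97 regions in the 9 windows, as the distance of the median summit from the captured start in kb (horizontal, positive downstream), with 1 row per gene. Dot area grows with the number of libraries that had the region, colour gives the class, and filled and open triangles mark the 12 regions gained and the 3 lost at any time point against 0 h.

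Distal regions listed in every library were few. Of the 61 distal regions 6 (9.84%) were in all 10 libraries, against 6.59% of all 19042 distal regions of the genome, and 22 were in 1 library. The 6 lay in the windows of Dhrs11, Lpin2 (2 regions), Tst, Atp1b2 and Plekho2, and the windows of Hebp1, Pcx, Slc38a5 and Spns2 had 0. All 6 hold AGATAA or TGATAA on either strand in the central 200 bp, a motif found in 44.1% of the 1254 distal regions in all 10 libraries and in 37.9% of all distal regions. Over all 61 distal regions the motif was in 24 (39.3%), close to the share of the genome. A match is a description of the letters and not a binding site.

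The strongest of them by median was the first Lpin2 region, inside the gene at +28.5 kb, with a lowest, median and highest percentile of 40.5, 85.3 and 89.0. The lowest value was that of 0 h replicate 1, and the other 9 libraries were at 68.1 or above. A second Lpin2 region at +52.2 kb ran from 20.8 to 90.6 with a median of 57.1. The Atp1b2 window held one at +19.9 kb, in an intron of the neighbour Trp53, between 50.2 and 94.8 with a median of 83.6.

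The Tst region at -7.35 kb lies in an intron of Mpst and ran from 54.9 to 92.7 with a median of 78.5. In Dhrs11 the region at +5.24 kb is intronic, with 55.9 and 46.6 before treatment, 47.3 and 65.0 after 2 h, 67.0 and 67.7 after 6 h, 78.4 and 79.4 after 12 h, and 83.6 and 23.2 after 24 h. Its values at 6 and 12 h lay above both at 0 h, whereas the pair at 24 h held the highest and the lowest of the series. The Plekho2 region at +24.9 kb is exonic and ran from 33.4 to 77.4.

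The median summit with 50 bp on each side is shown for the top distal region in all 10 libraries of 4 genes and for the 2 regions gained at 24 h, which are described next, with GATA matches on either strand in capitals. The Plekho2 region has its match outside this stretch and is not shown.
Dhrs11 +5.24 kb, chr11:84823672-84823772, plus strand: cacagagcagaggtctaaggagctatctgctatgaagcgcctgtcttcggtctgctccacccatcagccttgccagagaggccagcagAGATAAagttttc
Hebp1 -28.6 kb, chr6:135196804-135196904, plus strand: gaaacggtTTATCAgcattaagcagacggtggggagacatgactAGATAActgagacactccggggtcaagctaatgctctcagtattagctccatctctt
Lpin2 +28.5 kb, chr17:71212038-71212138, plus strand: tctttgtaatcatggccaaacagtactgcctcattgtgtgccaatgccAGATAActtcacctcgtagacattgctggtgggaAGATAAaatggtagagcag
Tst -7.35 kb, chr15:78413208-78413308, plus strand: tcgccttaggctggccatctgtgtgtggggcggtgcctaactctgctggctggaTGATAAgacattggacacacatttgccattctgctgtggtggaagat
Spns2 +7.74 kb, chr11:72482116-72482216, plus strand: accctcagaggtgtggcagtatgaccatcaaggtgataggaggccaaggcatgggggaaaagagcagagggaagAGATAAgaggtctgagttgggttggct
Atp1b2 +19.9 kb, chr11:69585919-69586019, plus strand: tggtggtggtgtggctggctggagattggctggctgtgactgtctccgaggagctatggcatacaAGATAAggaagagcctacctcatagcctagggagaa

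A gained region is one that both libraries of a later time point have and both 0 h libraries lack, and a lost region is the converse. In the 9 windows, gains numbered 7 of 97 regions after 2 h, 6 after 6 h, 6 after 12 h and 2 after 24 h, when the shares over all 28981 regions were 2.67%, 4.08%, 2.47% and 1.71%. As shares of the 97 these were 7.22%, 6.19%, 6.19% and 2.06%. Losses numbered 1 region after 2 h, 1 after 6 h, 2 after 12 h and 1 after 24 h, beside genome-wide shares of 1.15%, 0.759%, 1.88% and 3.51%. In the 155 regions around the 13 other captured genes, 7, 5, 2 and 7 were gained and 2, 1, 5 and 7 lost. The calls at the 4 time points share the 0 h libraries.

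Altogether 15 regions were called at one time or another, 11 of them distal, 3 at promoters of neighbours and 1 at the Hebp1 promoter. With every list restricted to its 10698 strongest summits, 7 of the 26 calls were kept, in 5 regions. The gained counts were then 3 of 72 regions at 2, 6 and 12 h (4.17% each, against 2.18%, 2.19% and 2.12% of all regions) and 2 at 24 h (2.78% against 2.66%).

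One region gained at 6, 12 and 24 h lay in an intron of Spns2, at +7.74 kb (chr11:72481828-72482599). None of the 4 libraries of 0 and 2 h had it, and all 6 libraries of 6, 12 and 24 h did, at percentiles of 35.5 and 31.5, 29.4 and 6.48, and 47.3 and 13.1. This pattern, chosen after it was seen, was held by 13 of the 28981 regions (0.0449%). The region has 1 GATA match 24 bp from the summit. The Spns2 promoter itself was listed in both 0 h libraries and in 1 of the 24 h libraries, and a difference between the promoter and the intronic site was not tested. All values of the intronic site were in the lower part of the lists, and with lists of equal length it was kept as gained at 24 h alone.

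In the Hebp1 window a region at -28.6 kb (chr6:135196482-135197109) was gained at 12 and 24 h. It was in none of the 0 and 2 h libraries, in 6 h replicate 2 at 21.9, in both 12 h libraries at 11.9 and 39.3 and in both 24 h libraries at 16.9 and 4.55. It lies within the annotated Hebp1 span, upstream of the protein-coding start, and 1123 bp upstream of the start of the neighbour Fam234b. Its central 200 bp hold 2 GATA matches, one of them in the arrangement of TAL1 with GATA1 sites (CTG, then 7 or 8 bases of any kind, then AGATAA or TGATAA), which 7.08% of all distal regions hold. At the same time the Hebp1 promoter was called lost at 12 h. Further regions of this window at -20.6 kb and -43.1 kb were gained at 12 h and at 2 h, with percentiles up to 3.76 and 35.1. With equal lists the gain at -28.6 kb was not called, and the promoter was called lost at 6, 12 and 24 h.

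Just upstream of Plekho2, a region at -1.14 kb (chr9:65580834-65581464) was gained at 2, 6 and 12 h. It was in neither 0 h library and gave 65.0 and 35.9 after 2 h, 76.5 and 45.5 after 6 h, 63.4 and 41.0 after 12 h and 86.8 in 24 h replicate 1. The last of these was the highest value in any gained region. In 24 h replicate 1, the library without a summit at the Plekho2 promoter, it was present, and in 24 h replicate 2 the reverse held. Here replicate 1 was the higher library at 2, 6 and 12 h, the opposite of the order at the promoter next to it. The region holds the CTCF motif, searched as CCA, any 2 bases, AG, any 2 bases and GGC. Its median summit is 971 bp from that of the promoter region. When summits were extended by 500 bp in place of 250 both regions merged and no gain was called, and within 2 kb of the start Plekho2 had a summit in all 10 libraries. With equal lists the calls at 2 and 12 h were kept. Another Plekho2 region at +55.9 kb was gained at 2 and 6 h, with percentiles from 25.2 to 71.5.

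The Tst window reaches the cytokine receptor genes Csf2rb and Csf2rb2, which encode the common β chain and its mouse relative. A region at +93.2 kb, 7.01 kb upstream of Csf2rb2 (chr15:78312186-78313043), was gained at 2, 6 and 12 h, with 38.1 and 26.9, 35.9 and 55.5, and 47.3 and 16.6. At 24 h it was in replicate 2 alone, at 38.5. A Csf2rb intronic region at +65.7 kb was gained at 12 h, at 63.5 and 60.6, and kept this call with equal lists.

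The other gains were shorter. Around Dhrs11, intergenic regions at +30.9 kb and +34.3 kb were gained at 2 h and at 6 h, and the promoter of the neighbour Znhit3 at 2 and 6 h, all with percentiles at or below 42.5. In the Slc38a5 window the Porcn promoter was gained at 2 h (3.96 and 9.53) and the Ftsj1 promoter was lost at 2 h after 66.2 and 2.13 at 0 h, but the latter was listed again in all 6 later libraries.

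The region lost at 6, 12 and 24 h was an exonic Lpin2 region at +55.1 kb (chr17:71238345-71238957). It was in both 0 h libraries at 10.4 and 20.8 and in 2 h replicate 2 at 14.7, and in none of the 6 libraries of 6, 12 and 24 h. With equal lists it was in 1 of the 0 h libraries and was not called. The windows of Pcx and Atp1b2 had no gained and no lost region at any time point.

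**Figure D3:**
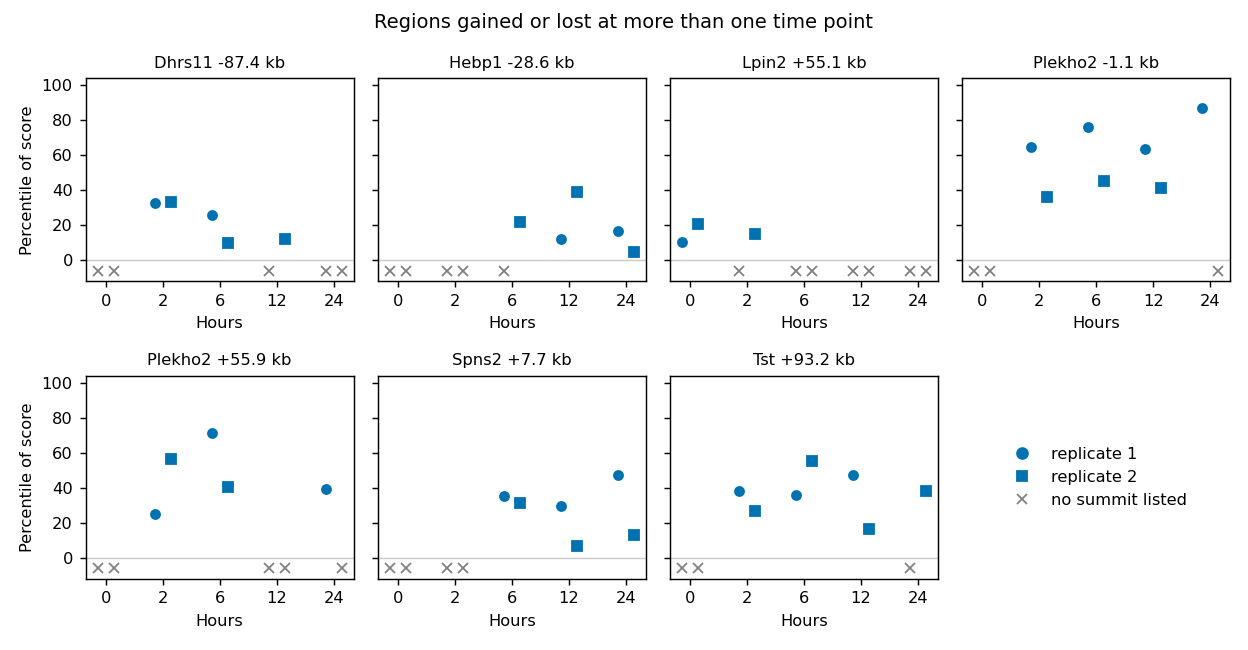
Percentile of the score in its list (vertical) against hours of β-estradiol (horizontal, time points evenly spaced) for the 7 regions gained or lost at more than 1 time point. Circles are replicate 1, squares replicate 2 and crosses libraries without a summit. The Spns2 region is absent from all 4 libraries of 0 and 2 h, and the Plekho2 region at -1.1 kb reaches 86.8.

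Of the 15 called regions, 3 (20%) held a GATA match, against 27.2% of all regions. All 3 were among the 11 distal called regions, and 37.9% of all distal regions held a match. Beside the 24 of 61 distal regions with GATA, the NFE2/AP-1 motif TGANTCA was in 7 (11.5%, against 8.89% of all distal regions), the TAL1 with GATA1 arrangement in 7 (11.5% against 7.08%), the KLF motif in 6 (9.84% against 9.16%) and the CTCF motif in 8 (13.1% against 13.6%). The motifs were searched on both strands of the central 200 bp and can overlap.

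Levels were compared over time for the regions present in all 10 libraries, where every library gives a value. Among 6234 such regions, 0 (0%) had a changed percentile at an adjusted p under 0.05 at 2, 6, 12 or 24 h against 0 h or over all time points, by limma with Benjamini-Hochberg adjustment. At an unadjusted p under 0.05 there were 264, 338, 272 and 347 at the 4 time points. The same test on 23 regions of the 9 windows gave 0 calls, with 1, 2, 1 and 2 at an unadjusted p under 0.05. Apart from the Atp1b2 promoter at 6 h these were neighbours' promoters, named after their values were seen, namely Oaz2 at 2 and 6 h, that shared by Trp53 and Wrap53 at 12 and 24 h and Rce1 at 24 h. The smallest adjusted p of the 23 was 0.863, at 24 h.

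For the 4 promoter regions in all libraries, the percentile at 24 h minus that at 0 h was -0.898 ± 4.83 (SE) for Pcx, 5.16 ± 9.16 for Atp1b2, 7.20 ± 16.9 for Lpin2 at its internal start and -13.0 ± 16.3 for Tst. Each difference was smaller than its standard error, which limma moderates over all regions, with an adjusted p of 0.9999 in all 4. The Pcx percentile is near its upper limit and can hardly show a change. On the centred log2 score the Pcx promoter was at -0.53 ± 0.40 (SE) at 24 h against 0 h, with an adjusted p of 0.9995 (limma), and the other 3 differed by less than their standard errors. A difference of 10 percentile points at Lpin2 or Tst is smaller than 1 standard error.

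The number of summits in each window was compared with the hours of treatment. By library from 0 h replicate 1 to 24 h replicate 2, Lpin2 had 5, 6, 5, 6, 5, 7, 5, 4, 3 and 5 summits, with a Pearson r of -0.61 (Spearman rho -0.57). Dhrs11 had 7, 7, 9, 7, 8, 9, 6, 6, 6 and 6, with an r of -0.60 (rho -0.63). Slc38a5 had 3, 3, 4, 3, 3, 4, 4, 3, 4 and 4, with an r of 0.56 (rho 0.57). The remaining 6 windows had r between -0.33 (Atp1b2) and 0.25 (Spns2). The order changed with lists of equal length, where r was 0.69 for Spns2, -0.55 for Atp1b2, 0.53 for Pcx and 0.50 for Tst but -0.16 for Lpin2, -0.21 for Dhrs11 and 0.21 for Slc38a5.

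None of these relations passed. By an exact two-sided permutation test over all 113400 orders of the hours, the smallest p among the 9 genes was 0.0659 (Lpin2, rho p = 0.0968), and the adjusted p was 1 for each of them. Over all 17304 gene windows with a varying number, 0 (0%) had an adjusted p under 0.05, and 529 had an unadjusted p under 0.05. With 113400 orders, no window standing alone could pass adjustment over 17304 windows, and tied numbers raise its smallest possible p. The lack of a pass therefore does not show that a trend was absent. Without both 24 h libraries r was -0.41 for Lpin2, -0.42 for Dhrs11 and 0.28 for Slc38a5. Within replicate numbers 1 and 2, r was -0.88 and -0.55 for Lpin2, -0.69 and -0.51 for Dhrs11 and 0.55 and 0.59 for Slc38a5. Per 10000 summits of the list, r was -0.31, -0.36 and 0.67. In windows of 50 kb it was -0.39, -0.28 and 0.80, and in windows of 200 kb -0.61, -0.38 and 0.027. The value of 0.80 for Slc38a5 had a permutation p of 0.0111 and did not pass after adjustment. With lists of equal length the smallest permutation p of the 9 was 0.027 (Spns2), and the smallest adjusted p was 0.844. The longest list, 6 h replicate 2, had the highest number of summits, alone or shared, in 8 of the 9 windows, Spns2 being the exception.

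**Figure D4:**
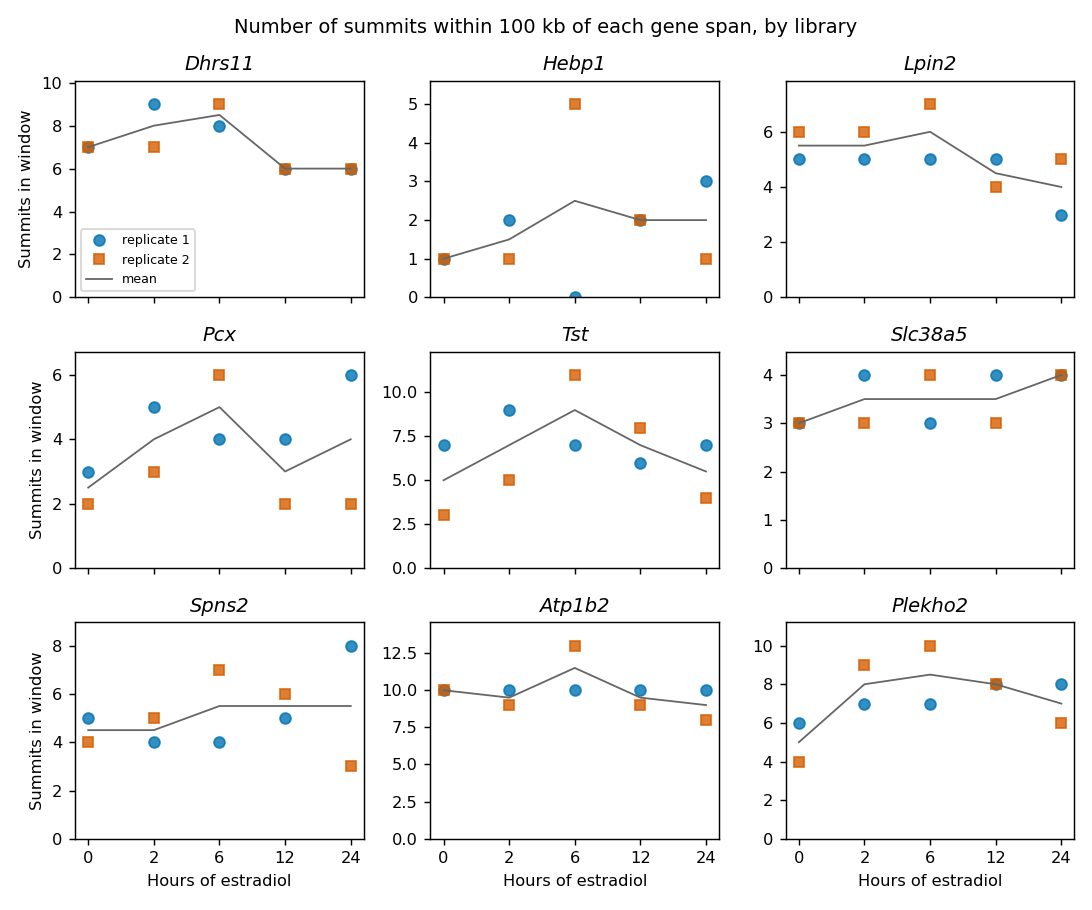
Number of summits within 100 kb of each gene span (vertical, from 0) against hours of β-estradiol (horizontal, time points evenly spaced), with circles for replicate 1, squares for replicate 2 and a line through the mean of both. Replicates of a time point often differ by as much as the time points, as for Spns2 at 24 h with 8 and 3.

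For the 4 promoters in all 10 libraries, the gene elsewhere in the genome whose promoter percentile followed most closely over the 10 libraries was Cenpc1, a centromere protein gene, for Lpin2 (r = 0.95), Ddx50, an RNA helicase gene, for Tst (0.91), E2f4, a cell cycle transcription factor gene, for Atp1b2 (0.90) and Dele1 for Pcx (0.65). Each is the highest of 5720 to 5751 genes compared and is given as a description. Both genes of a pair were read in the same 10 libraries, so list length and depth enter both.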

How the data were processed

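ATAC-seq was performed by the authors on G1E-ER4 cells at 5 time points, with 2 libraries each. Per the methods, adaptors were trimmed, reads aligned to mm10 and uniquely mapped reads kept, and peaks called by MACS with its fragment model turned off. Bowtie2 is the aligner of the methods, whereas the submitters' processing notes list Bowtie 1.0.0 (with Picard and MACS2), so the aligner is not settled. A shift for the Tn5 cut is not given in the sources used here, so summit positions carry that uncertainty. The deposited lists hold 1-bp summits of peaks called in each library alone, with a score that is -log10 of the q-value given by the authors' peak caller (lowest 1.30, a q-value of 0.0499). The lists give no counts, so depth is unknown, the precision rests on the 2 libraries, and no interval that needs depth is given.

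Summits on chromosomes 1 to 19, X and Y were used, each extended by 250 bp on both sides to 501 bp, and overlapping windows of the 10 lists were merged. Scores were turned into percentiles within a list. Genes were taken from GENCODE M21 (GRCm38.p6). The methods give mm10, the same build, for the reads, and 0 chromosomes had a summit past their reference length. All 122 guides of the study matched this assembly, which checks the listed guide positions and not the peak lists. limma (version 3.58.1) was run in R 4.3.3 on all regions in 10 libraries, and window numbers were tested by exact permutation in Python 3.11.15, with Benjamini-Hochberg adjustment over all features and a threshold of 0.05. Both were also run on simulated data with large changes set in advance, which does not give their power for the 9 windows. Regions described in full were the promoter region in the most libraries, the top distal region in all 10 libraries and every region gained or lost. Replicate numbers in the sample titles were checked for pairing. Deviations from the time point means correlated between all 10 pairs of replicate 1 libraries, from 0.149 to 0.326. The labels do not say what libraries of the same number share. The main tests had no replicate term, so their standard errors and p-values are unpaired. Pairing by replicate number was used only as an alternative. The 9 genes and the gene lists were chosen with earlier results of these data known, and some listed genes are not reported here. Alternatives were other promoter distances, window sizes and merging widths, lists of equal length, a score of at least 2, log2 scores, a replicate term and leaving out each library.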

Additional observations from a re-analysis of the deposited data

How the results depend on the processing

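Limits: depth is unknown, a region missing from a list had no peak past the caller's threshold, and an exact test of 2 libraries against 2 cannot go below p = 0.333. Restricting each list to 10698 summits lowered the genes with a promoter summit in all libraries from 4 to 2 and in both 24 h libraries from 5 to 3. It lowered the gained regions to 3 of 72 at 2 h, 3 at 6 h and 3 at 12 h (4.17% each). It gave 0 lost at 2 h, 2 (2.78%) at 6 h and 1 (1.39%) at 12 h. The shares of all regions were then 2.18%, 2.19% and 2.12% gained and 2.20%, 2.17% and 2.51% lost. Promoter distances of 0.5 kb and 2 kb gave 3 and 5 genes with a promoter summit in all libraries. Windows of 50 kb held 61 regions, of which 4 (6.56%) were gained at 2 h, against 2.67% of all regions. Windows of 200 kb held 157 regions. Of these 10 (6.37%) were gained at 6 h, 2 (1.27%) lost at 2 h and 2 (1.27%) lost at 24 h. The matching shares of all regions were 4.08%, 1.15% and 3.51%. Merging with 100 bp on each side of a summit gave 2 lost at 2 h and 2 lost at 24 h. The cause of these shifts was not tested.

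Leaving out each library in turn lets the remaining library of its time point stand alone, which by construction makes calls easier. Shares over all regions are not given for these settings, so the counts below cannot be read against the genome. Gained regions then ranged from 7 to 15 at 2 h, 6 to 25 at 6 h, 6 to 14 at 12 h and 2 to 14 at 24 h, and lost regions from 4 to 4, 1 to 5, 3 to 6 and 3 to 8. The highest gained counts came without 2 h replicate 2 (15), 6 h replicate 1 (25), 12 h replicate 2 (14) and 24 h replicate 2 (14). Without 2 h replicate 1 there were 13, without 6 h replicate 2 there were 10, without 12 h replicate 1 there were 12 and without 24 h replicate 1 there were 8, and without 0 h replicate 1 there were 12 at 6 h and 4 at 24 h. Lost counts moved to 4, 4 and 3 at 2, 12 and 24 h without 0 h replicate 1, to 4, 4, 6 and 4 at the 4 times without 0 h replicate 2, to 4 without either 2 h library, to 5 without 6 h replicate 2, to 6 without 12 h replicate 2, and to 8 and 3 without 24 h replicates 1 and 2. Genes with a promoter summit in the 24 h lists ranged from 6 to 8, being 8 without 24 h replicate 2.

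With replicate number as a block, the limma fit again called 0 regions in the 9 windows (smallest adjusted p 0.614), the trend test called 0 windows (smallest p 0.05, Lpin2), and the gained and lost counts were the same by construction, so the replicate block changed no call. In all 15 alternatives the limma calls in the 9 windows stayed at 0, with smallest adjusted p from 0.295 to 1, as did the trend calls in all 16. Equal lists called 1 region elsewhere in the genome at 2 h.

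Uncalled values changed sign in places. The r of Hebp1 was -0.30 with equal lists and -0.049 with 200 kb, that of Pcx -0.023 with 200 kb, and that of Tst 0.050 as rho, 0.024 per 10000 summits and 0.50 with equal lists. Leaving out libraries, r ranged from -0.27 to 0.45 for Pcx, -0.38 to 0.17 for Tst, -0.24 to 0.75 for Spns2 and -0.13 to 0.38 for Plekho2, and the 24 h minus 0 h percentile from -1.84 to 12.1 for Atp1b2, -28.8 to 2.75 for Tst and -3.34 to 17.7 for Lpin2.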
